A study of Homo sapiens with 9 samples.

Results

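The genes described here are 48 human genes of DNA replication and of the G1/S transition, the point at which a cell commits to copying its genome. They were chosen by gene symbol from lists of replication licensing, helicase, DNA polymerase, clamp, single-strand binding, E2F and fork genes. The rule holds no measured value, but earlier results of these data were known when the genes were chosen. They are 48 of the 58347 gene IDs in the count table. All 48 passed the filter on low counts, which kept 23675 genes, and the lowest count of any of them in any library was 349.

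RNA was sequenced from 9 libraries of K562-FIRE cells to ask whether a guide RNA (sgRNA) and rapamycin, by bringing the endogenous BAF chromatin remodeller to the HBG1 promoter, would activate that gene. K562 is a human erythroleukaemia line, and the FIRE version stably expresses dCas9, an MS2-Fkbp fusion and an SS18-Frb fusion, each from an EF1a promoter. Rapamycin links Fkbp to Frb, and it is also a clinical inhibitor of the growth kinase mTOR. Cells carried an sgRNA to the HBG1 promoter and received DMSO (n = 3) or 10 nM rapamycin (n = 3) for 24 h, or carried a non-targeting sgRNA and received DMSO (n = 1, labelled replicate 2) or 10 nM rapamycin (n = 2) for 24 h. All 4 groups carry the dCas9, MS2-Fkbp and SS18-Frb constructs, and there is no group of parental K562 cells among them. Whether the line is a clone, and whether replicates were separate cultures, is not given in the sources used here, so the p-values measure the spread between these libraries, which may be technical.

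In a dividing cell, replication starts with licensing. In G1 the origin recognition complex, CDC6 and CDT1 load the MCM2-7 ring onto DNA, and geminin later stops it from being loaded again. In S phase the CDC7-DBF4 kinase, MCM10, CDC45 and the GINS proteins turn the loaded ring into a moving helicase, and polymerases alpha, delta and epsilon copy the strands with the PCNA clamp and its RFC loader. Many of these genes are transcribed at the G1/S boundary under E2F transcription factors, and K562 cells lack the CDKN2A gene, whose p16 product restrains that step.

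Libraries held between 19797409 and 31619671 counts. The 2 HBG1 sgRNA libraries labelled replicate 1 stood apart: the chi-square statistic per gene against the other replicates of their group was 15.0 to 16.8, against 4.58 to 7.38 for the other replicate pairs. Erythroid genes were expressed, with GATA1 at 198 ± 13.5 CPM (SD, n = 3) and TAL1 at 131 ± 6.74 CPM (SD, n = 3) under DMSO with the HBG1 sgRNA, and CDKN2A had 0 counts in every library. Among 13 markers of T cells, B cells, monocytes, epithelium and fibroblasts, CD3E, CD3G, MS4A1, CD79A, CD14, CDH1 and DCN averaged under 0.5 CPM. EPCAM (40.8 CPM), LYZ (19.2 CPM) and COL1A2 (9.87 CPM) were detected under DMSO with the HBG1 sgRNA, and the 13 markers summed to 74.2 to 88.1 CPM in the 3 DMSO libraries and 86.1 to 99.3 CPM in the 3 rapamycin libraries with that guide. In edgeR's test of rapamycin against DMSO none of the 9 markers that could be tested was called (2 at an unadjusted p under 0.05, 0 called by DESeq2). With replicate number as a block, 2 of 6 were called higher, LYZ (log2 fold change 0.34, adjusted p 0.0274) and COL1A2 (0.55, adjusted p 0.00922). Their part in the results was not tested.

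The members were well expressed. Their levels in CPM (counts relative to the TMM-scaled library total), averaged over all libraries, ran from 21.4 (POLD3) to 680 (MCM7), and together they took 0.604% ± 0.00309 of counts (SD, n = 3) under DMSO with the HBG1 sgRNA. Per length, as RPKM on the merged exons of each gene, MCM7 stood highest in that group at 159 ± 4.38 (SD, n = 3), followed by PCNA, the sliding clamp, at 126 ± 8.06 (SD, n = 3) and CDC45, a subunit of the active helicase, at 113 ± 4.43 (SD, n = 3). These 3 levels lay further apart than their SDs. FEN1 (70.3 RPKM), MCM4 (69.0 RPKM), MCM3 (68.5 RPKM) and CDT1 (67.2 RPKM) came next and lay within their SDs of 1.35 to 4.69 RPKM of each other, apart from CDC45 above and MCM6 (59.5 RPKM) below.

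Subunits of a single complex did not share a level per length. The MCM2-7 genes ran from MCM7 at 159 RPKM to MCM5 at 28.5 ± 1.07 RPKM (SD, n = 3), the GINS genes from GINS2 at 17.6 to GINS3 at 6.01, and polymerase delta from POLD1 at 44.8 to POLD3 at 3.79 ± 0.401 (SD, n = 3), the lowest of the 48. Among the E2F genes, the activator E2F1 stood at 21.9 RPKM and the repressor E2F8 at 6.98 RPKM. Merged exons count every annotated isoform, so a gene with long rarely used exons has a lower RPKM.

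**Figure D1:**
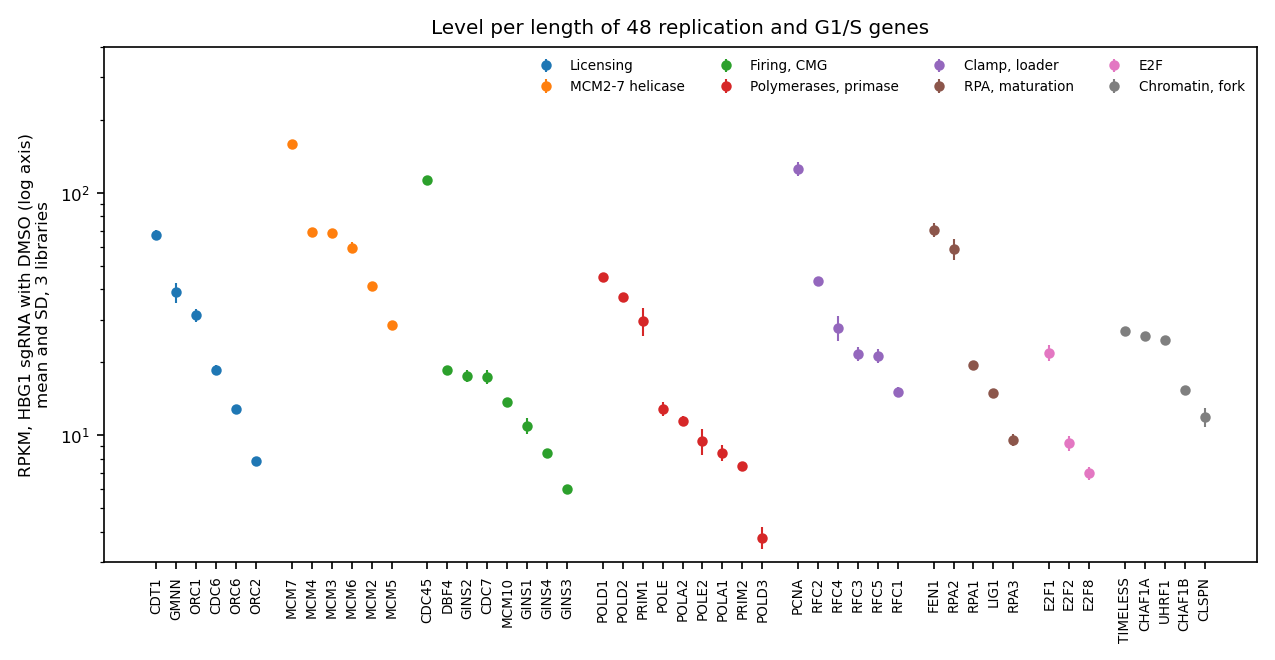
Level per length (RPKM, log axis) of the 48 genes in the 3 HBG1 sgRNA libraries with DMSO, grouped by role; points are means and bars are SD. MCM7, PCNA and CDC45 are above 100 RPKM and POLD3 is lowest at 3.79 RPKM.

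Rapamycin was compared with DMSO in cells with the HBG1 sgRNA. Of the 48 genes, 5 fell (MCM10, DBF4, RFC3, MCM3 and MCM4), 2 rose (PRIM1 and RPA3) and 41 did not pass the test, which was edgeR's quasi-likelihood test with a Benjamini-Hochberg adjusted p under 0.05 over all tested genes. The changes were small, between -0.48 and 0.39 on the log2 scale. Over all tested genes, 6.80% were called, 4.05% lower (959 genes) and 2.75% higher (650 genes). Among the 8123 genes at least as abundant as the lowest of the 48, 10.4% were called lower and 4.30% higher. The shares of the 48 were 10.4% and 4.17%, so they were called about as often as the 8123. The 8123, named the genes of like level below, share only this lower bound and were not matched to the 48 in level. With upper quartile scaling in place of TMM, which moved all genes up by 0.04 on the log2 scale, 673 genes were called lower and 819 higher, and among the 48 the calls were 2 lower (MCM10 and DBF4) and 2 higher.

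The sign of the changes leaned further down than the calls. Log2 fold changes were below 0 for 39 of the 48 (81.2%), against 47.7% of all tested genes and 62.4% of the genes at least as abundant as the lowest member. The median was -0.16 over the 48, 0.02 over all tested genes and -0.06 over the genes of like level. With upper quartile scaling 36 were below 0, the signs of POLE, RPA1 and CHAF1B being reversed at values near 0. All 3 rapamycin libraries lay below all 3 DMSO libraries for 22 of the 48 (45.8%), where 13.1% of all tested genes and 26.6% of the genes of like level did so. They lay above for 3 (MCM5, PRIM1 and RPA3; 6.25%), beside 12.2% and 11.5%. Summed over the 48, the share of counts was 0.603% to 0.608% in the DMSO libraries and 0.535% to 0.575% in the rapamycin libraries, so the groups did not overlap. In bulk RNA, fewer cells in S phase and less replication mRNA per cell cannot be told apart.

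Same-numbered DMSO and rapamycin libraries deviated together, so replicate number was also fitted as a block on the 6 HBG1 sgRNA libraries. The replicate 1 libraries stood apart in both groups, and a pairing of replicates 2 and 3 was not tested apart from them. With the block, 21 of the 48 were called lower (43.8%) and 2 higher (4.17%). Over all genes in that fit the shares were 9.62% lower and 7.43% higher, and over the genes of like level 20.5% and 9.73%. All 7 genes called without the block were among the 23 called with it. An unadjusted p under 0.05 in edgeR's test without the block was reached by 25 of the 48, beside 20.8% of all tested genes and 35.3% of the genes of like level. DESeq2 called 13 of the 48 lower and 2 higher, beside 5.36% and 3.70% of all tested genes and 13.7% and 5.72% of the genes of like level. The count without the block rests on single libraries: 2 genes were called lower without DMSO replicate 1, 2 or 3 or without rapamycin replicate 3, and 11 without rapamycin replicate 1. The 2 genes called higher were both lost without DMSO replicate 2, DMSO replicate 3 or rapamycin replicate 3, and RPA3 was lost without rapamycin replicate 1. With the block, the count of 21 became 10, 17 and 11 when pair 1, 2 or 3 was left out.

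**Figure D2:**
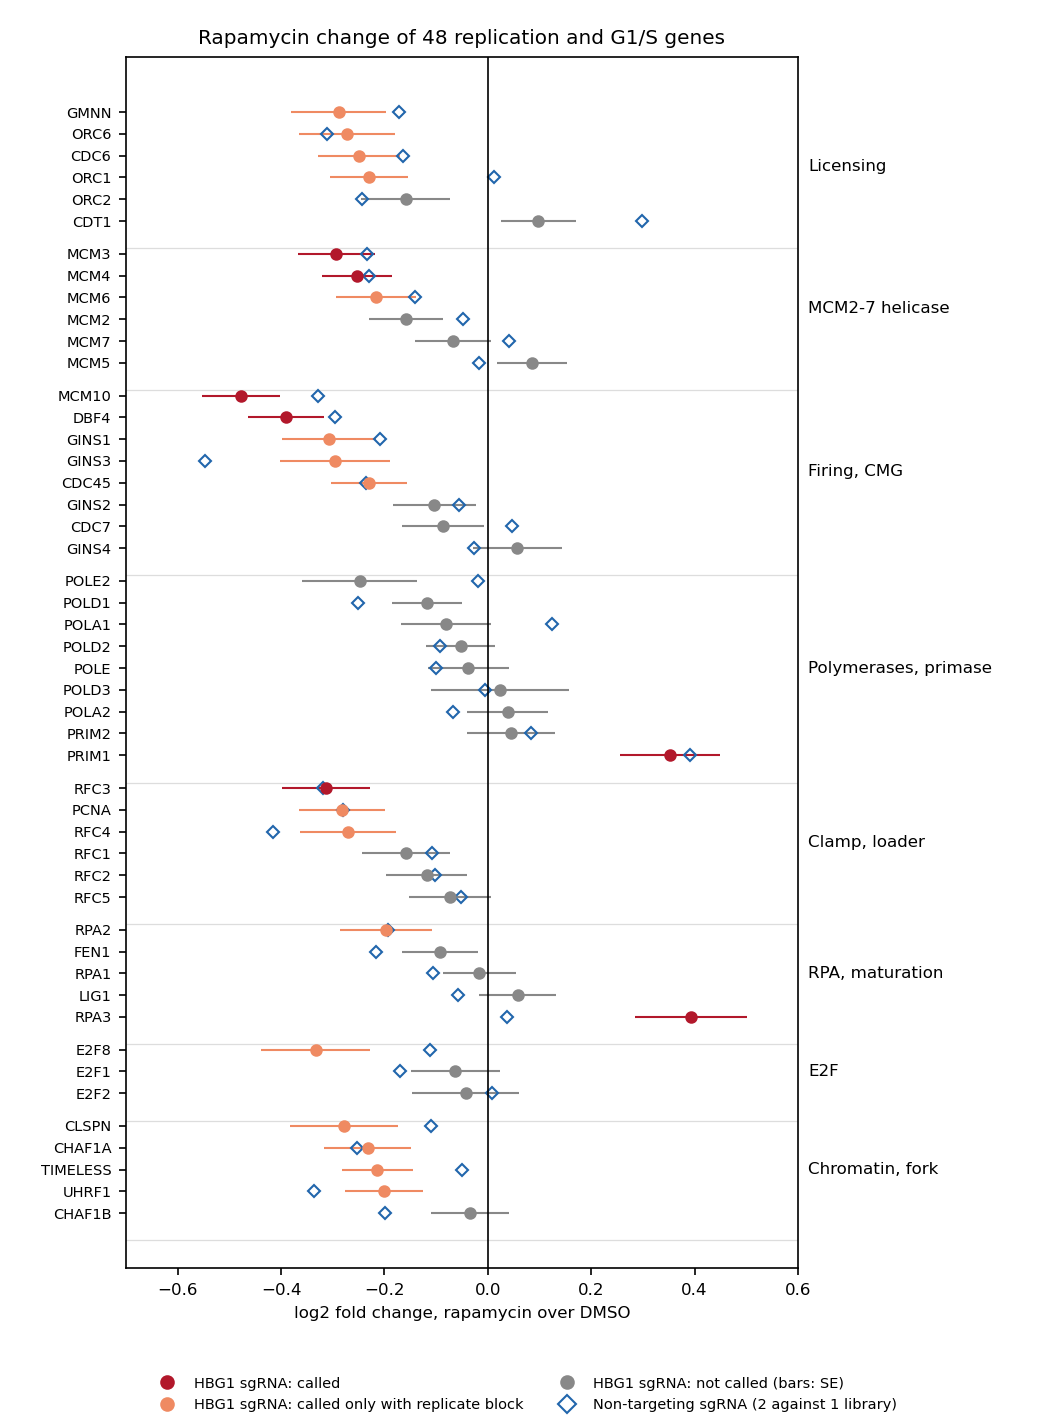
Log2 fold change of rapamycin over DMSO for each of the 48 genes, ordered by role. Circles are the HBG1 sgRNA (3 against 3 libraries, bars are SE, dark red for the 7 called genes, orange for those called only with the replicate block, grey for the rest) and open diamonds are the non-targeting sgRNA (2 against 1 library, no test). MCM10 is lowest at -0.48 and RPA3 highest at 0.39 among the circles, and circles and diamonds are on the same side of 0 for 38 of the 48 genes.

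Licensing genes had values below their DMSO level in 5 of 6 cases. None of the 6 (ORC1, ORC2, ORC6, CDC6, CDT1 and GMNN) passed edgeR's test without the block, 4 of them had an unadjusted p under 0.05, 4 were called lower with the block and 3 by DESeq2. The median log2 fold change was -0.24. CDC6, the ATPase that helps to load the MCM ring, measured 109, 98.7 and 103 CPM in the 3 DMSO libraries and 92.8, 80.7 and 87.5 CPM in the 3 rapamycin libraries. The highest rapamycin library lay below the lowest DMSO library. Its log2 fold change was -0.25 with an SE of 0.0786, an adjusted p of 0.0701 without the block and of 0.00979 with it.

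The other 3 licensing genes called with the block were GMNN, which encodes the CDT1 inhibitor geminin (log2 fold change without the block -0.29, adjusted p with the block 0.00948), ORC6 (-0.27, 0.021) and ORC1 (-0.23, 0.0196), both subunits of the origin recognition complex. ORC2, a further subunit, had -0.16 and did not pass either fit. CDT1, the partner of CDC6 in loading, was the exception in sign, with a log2 fold change of 0.10 and an adjusted p of 0.487. CDT1 measured higher with rapamycin than with DMSO in each of the 3 pairs, although the groups overlapped (213 to 234 CPM with DMSO, 231 to 246 CPM with rapamycin).

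Of the 6 subunits of the MCM2-7 helicase, MCM3 and MCM4 fell, MCM6 was called lower only with the block, and MCM2, MCM5 and MCM7 did not pass either fit. MCM3 (ENSG00000112118, chromosome 6, 52264009 to 52284881, minus strand, GRCh38) measured 256, 246 and 248 CPM with DMSO and 223, 188 and 202 CPM with rapamycin. MCM4 (ENSG00000104738) measured 494, 473 and 477 CPM with DMSO and 396, 429 and 387 CPM with rapamycin. For both genes every rapamycin library was below every DMSO library. MCM3 fell by 0.29 on the log2 scale (SE 0.0745, adjusted p 0.0257), a change of -18.4%. MCM4 fell by 0.25 (SE 0.0671, adjusted p 0.0316), a change of -16.1%. Both calls were lost without any 1 of the 3 DMSO libraries or without rapamycin replicate 3 (adjusted p up to 0.102 for MCM3 and 0.142 for MCM4), and that of MCM3 also without rapamycin replicate 2 (0.0793).

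MCM2, a landmark of proliferating cells, measured 200.5, 207 and 199 CPM with DMSO and 175, 190.4 and 178 CPM with rapamycin. These libraries did not overlap, but the log2 fold change of -0.16 (SE 0.0712) had an adjusted p of 0.214 without the block and 0.0741 with it. MCM6 had a log2 fold change of -0.22 and an adjusted p of 0.0165 with the block. MCM7 had -0.07. MCM5 had 0.09, with all 3 rapamycin libraries (218 to 225 CPM) just above all 3 DMSO libraries (202 to 217 CPM). The ring is built from 1 copy of each of these proteins, and differences between their mRNAs were not tested.

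The largest decreases were in genes that fire licensed origins. Of the 8 in this group (MCM10, CDC45, CDC7, DBF4 and GINS1 to GINS4), MCM10 and DBF4 fell, CDC45, GINS1 and GINS3 were called lower only with the block, and the median log2 fold change was -0.26. MCM10 (ENSG00000065328, chromosome 10, 13161554 to 13211104, plus strand, GRCh38), which helps the loaded helicase to start unwinding, measured 73.8, 75.7 and 75.0 CPM with DMSO and 52.0, 55.0 and 54.3 CPM with rapamycin. DBF4 (ENSG00000006634, chromosome 7, 87876216 to 87909541, plus strand, GRCh38), the activating subunit of the CDC7 kinase, measured 87.0, 84.7 and 83.6 CPM with DMSO and 65.3, 63.1 and 66.5 CPM with rapamycin. In both genes the gap between the groups was wider than the range within either group.

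MCM10 fell by 0.48 on the log2 scale (SE 0.0757, adjusted p 0.00156), a change of -28.2%, and DBF4 fell by 0.39 (SE 0.0733, adjusted p 0.00494), a change of -23.7%. Both stayed called when any 1 of the 6 HBG1 sgRNA libraries was left out. Of the 19 alternatives run, MCM10 lost its call only without the 2 libraries of pair 3 (adjusted p 0.0575), and DBF4 only without pair 2 (0.0716) or pair 3 (0.0814). The catalytic subunit CDC7 did not pass either fit, with a log2 fold change of -0.09 beside the -0.39 of its activator. DBF4 overlaps SLC25A40 on the other strand by exons, and SLC25A40 was not called (-0.11, adjusted p 0.681).

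Of the proteins that join the MCM ring to form the active helicase, CDC45 had a log2 fold change of -0.23, GINS1 of -0.31 and GINS3 of -0.30, with adjusted p-values of 0.0163, 0.0141 and 0.0314 with the block. GINS2 had -0.10 and GINS4 had 0.06, and neither passed either fit. The 4 GINS proteins form a single complex, and differences between its subunits were not tested.

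Of the 9 DNA polymerase and primase genes none was called lower in either fit or by DESeq2, 2 had an unadjusted p under 0.05, the median log2 fold change was -0.04, and 1 gene rose. PRIM1 (ENSG00000198056, chromosome 12, 56731596 to 56752373, minus strand, GRCh38), the catalytic primase subunit that lays down RNA primers, measured 83.2, 69.2 and 64.3 CPM with DMSO and 93.2, 84.0 and 99.8 CPM with rapamycin. The groups did not overlap, though rapamycin replicate 2 was less than 1 CPM above DMSO replicate 1. PRIM1 rose by 0.35 on the log2 scale (SE 0.0966, adjusted p 0.0373), a change of 27.7%.

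Its exons overlap those of NACA on the same strand and of HSD17B6 on the other, and how reads in such overlaps were counted is not given in the sources used here. NACA (569 CPM with DMSO and 621 CPM with rapamycin) was not called, with a log2 fold change of 0.12. PRIM2, the other primase subunit, had 0.04, POLA1 and POLA2 had -0.08 and 0.04, and the catalytic subunits POLD1 and POLE had -0.12 and -0.04. POLE2 had the lowest value of the group, -0.25, with an adjusted p of 0.211 without the block and 0.137 with it.

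All 6 genes of the clamp and its loader had log2 fold changes below 0, with 1 called lower without the block and 3 with it. RFC3 (ENSG00000133119, chromosome 13, 33818049 to 33966558, plus strand, GRCh38), a small subunit of the loader, measured 63.7, 65.5 and 57.5 CPM with DMSO and 47.1, 51.0 and 52.2 CPM with rapamycin. RFC3 fell by 0.31 on the log2 scale (SE 0.0852, adjusted p 0.0363), a change of -19.5%. The call was lost when any 1 of the 6 HBG1 sgRNA libraries was left out, with adjusted p from 0.0505 to 0.160. PCNA measured 198, 183 and 174 CPM with DMSO and 165, 139 and 153 CPM with rapamycin, again without overlap. Its log2 fold change of -0.28 (SE 0.0834) had an adjusted p of 0.0538 without the block and 0.00339 with it. RFC4 was the third gene called with the block (-0.27, adjusted p 0.00861), and RFC1, RFC2 and RFC5 had -0.16, -0.12 and -0.07.

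The 3 subunits of replication protein A, which coats single-stranded DNA as a trimer, had values on both sides of 0. RPA3 (ENSG00000106399, chromosome 7, 7636518 to 7718607, minus strand, GRCh38), the smallest subunit, measured 32.7, 31.0 and 29.1 CPM with DMSO and 42.3, 34.7 and 44.8 CPM with rapamycin, and rose by 0.39 on the log2 scale (SE 0.108, adjusted p 0.0381), a change of 31.3%. RPA2 had a log2 fold change of -0.20 and was called lower only with the block (adjusted p 0.0371), and RPA1 had -0.02. RPA3 overlaps UMAD1 and AC007161.3 on the other strand by exons, and both had lower values with rapamycin (log2 fold changes of -0.15 and -0.08, not called). FEN1, the flap nuclease, and LIG1, the ligase that joins lagging strand fragments, had -0.09 and 0.06.

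**Figure D3:**
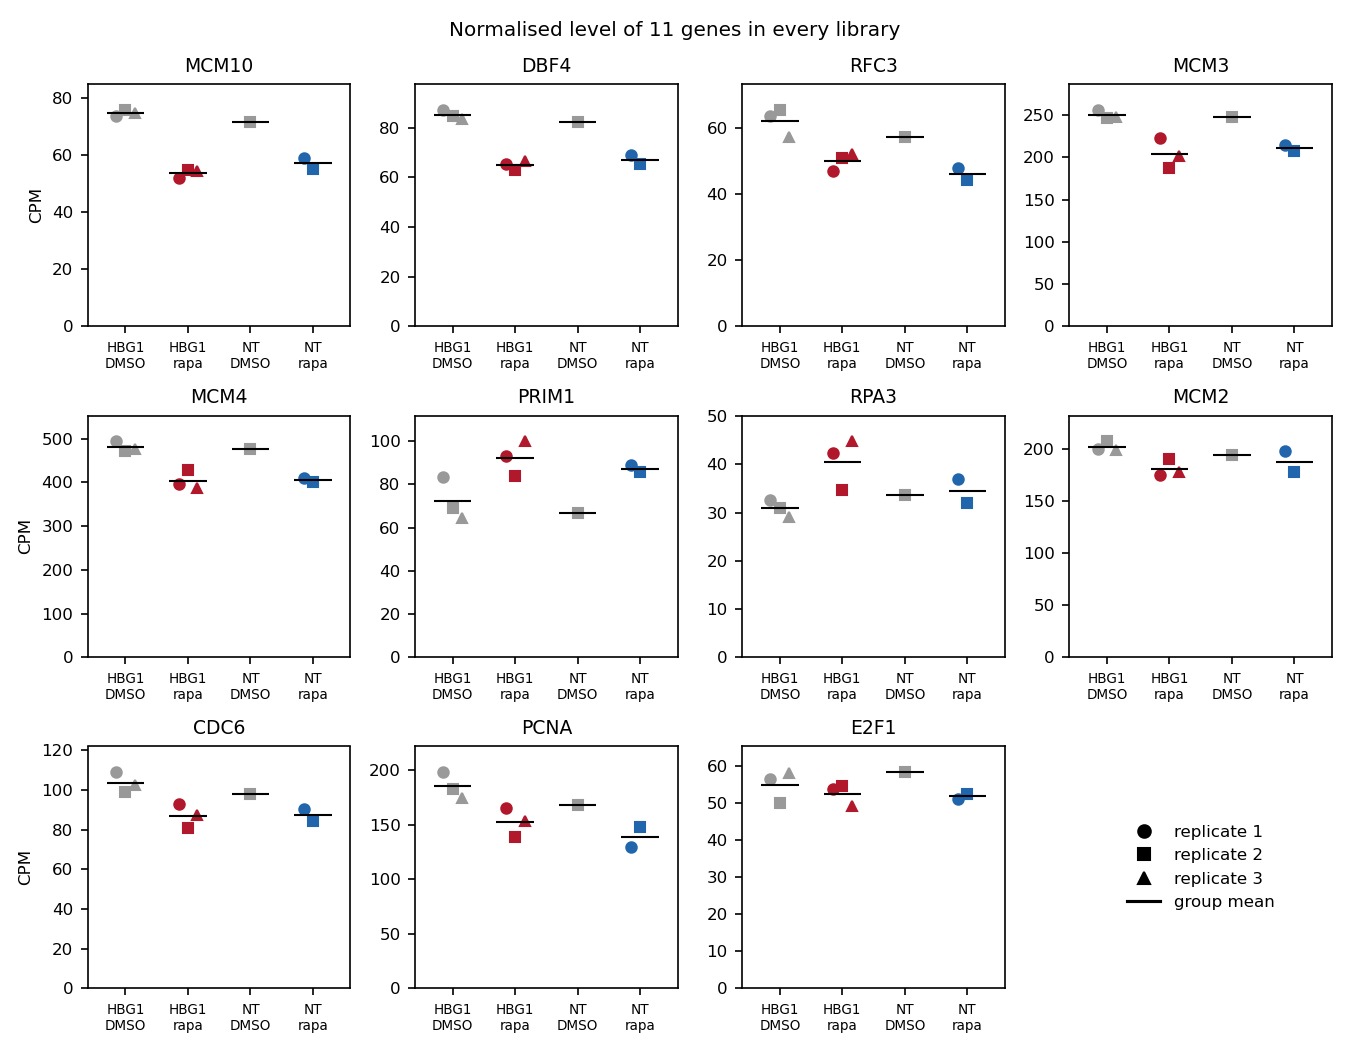
Normalised level (CPM, axes from 0) of 11 genes in every library: the 7 called between rapamycin and DMSO in HBG1 sgRNA cells, and MCM2, CDC6, PCNA and E2F1. Symbols mark the replicate and lines the group means. MCM10 and DBF4 show the widest gap between groups relative to the spread, and E2F1 groups overlap.

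None of the 3 E2F genes passed edgeR's test without the block, where 1 had an unadjusted p under 0.05, and E2F8 was called lower with the block and by DESeq2. E2F1, an activator of G1/S transcription, measured 56.4, 50.01 and 57.9 CPM with DMSO and 53.6, 54.5 and 49.2 CPM with rapamycin. The groups overlapped, and the log2 fold change of -0.06 (SE 0.0856) had an adjusted p of 0.739. E2F2, another activator, had -0.04 (SE 0.103). E2F8, an atypical E2F that represses transcription late in S phase, had -0.33, with an adjusted p of 0.0711 without the block and 0.0176 with it.

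Of 5 genes that act at the fork and on the chromatin behind it, 4 were called lower with the block and 1 by DESeq2. None passed without the block, where 4 had an unadjusted p under 0.05. The 4 were CLSPN, which carries the checkpoint signal at stalled forks (-0.28), CHAF1A, the large subunit of the histone chaperone CAF-1 (-0.23), TIMELESS, a fork protection factor (-0.21), and UHRF1, which helps to maintain DNA methylation behind the fork (-0.20), with adjusted p-values with the block of 0.0102, 0.0174, 0.0182 and 0.0345. CHAF1B, the next CAF-1 subunit, had -0.03. CHAF1A overlaps UBXN6 on the other strand by exons, and UBXN6 was called in the opposite direction (0.27, adjusted p 0.0416). Over the 48 genes, 20 overlap another gene by exons, 5 of them on the same strand, and the strand setting of the counting is not given in the sources used here.

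**Figure D4:**
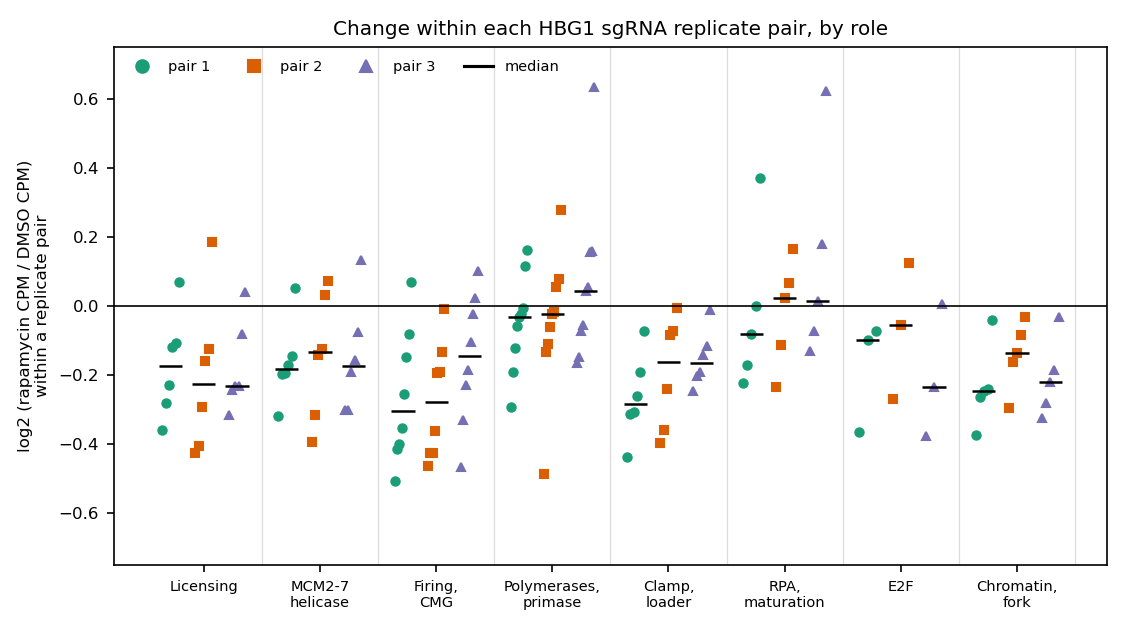
Log2 ratio of rapamycin to DMSO CPM within each HBG1 sgRNA replicate pair, for every gene by role; bars are medians. Of the 48 genes, 31 are below 0 in all 3 pairs, 4 (MCM5, CDT1, PRIM1 and RPA3) are above 0 in all 3, and 13 are mixed. The shares over all tested genes were not computed. The 2 highest points, PRIM1 (0.63) and RPA3 (0.62), are from pair 3.

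PRIM1 differed by pair, with log2 ratios of 0.16, 0.28 and 0.63 in pairs 1, 2 and 3, and RPA3 with 0.37, 0.17 and 0.62. MCM10 was even, with -0.51, -0.46 and -0.465, as was DBF4 with -0.41, -0.43 and -0.33. With pair 3 left out of the block fit, neither PRIM1 (0.23, adjusted p 0.0968) nor RPA3 (0.27, adjusted p 0.116) passed.

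Promoters were read to see what the members share beyond their values, since E2F factors act at promoters of this kind. In RefSeq (GRCh38.p14), from 250 bases before to 50 after each annotated start, 41 of the 48 genes had an entry, with 52 starts. MCM4, GINS4, MCM5, RPA2, RPA3, POLD3 and E2F8 were not matched. The search took 4 words of the E2F type on both strands: the word TTCCCGC, the word TTGGCGC, the word TTCGCGC and the word TTGCCGC. It also took CCAAT, the word of the CCAAT box, on both strands. TTGGCGC and the reverse complement of TTCGCGC overlap where the run TTGGCGCGAA occurs, and both are then counted. An E2F-type word was found in 35 of the 52 promoters (67.3%) and in 13.0% of all 35116 promoters, and CCAAT in 57.7% of the 52 and in 34.6% of all. The 35116 were neither limited to expressed genes nor matched to the 52 in base content.

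The stretches printed are the parts of 4 promoters that no annotated exon covers. They were chosen because MCM3 and MCM10 fell without the block, MCM6 and PCNA were lower with it, and their letters differ. In the printed stretches MCM6 holds 4 matches, MCM3 and PCNA 1 each, and MCM10 none. Over its whole window MCM3 has 3 matches, since its printed stretch leaves out bases nearer the start that its own exons cover. The counts of MCM6, PCNA and MCM10 are the same over the whole window. Capitals mark the E2F-type words on either strand, and each is written 5′ to 3′ along its gene. MCM6 is chr2:135876444-135876693 (minus strand), MCM3 is chr6:52284882-52284992 (minus strand), PCNA is chr20:5126627-5126785 (minus strand, 1 of 2 annotated starts) and MCM10 is chr10:13161308-13161553 (plus strand), all in GRCh38.p14.
MCM6: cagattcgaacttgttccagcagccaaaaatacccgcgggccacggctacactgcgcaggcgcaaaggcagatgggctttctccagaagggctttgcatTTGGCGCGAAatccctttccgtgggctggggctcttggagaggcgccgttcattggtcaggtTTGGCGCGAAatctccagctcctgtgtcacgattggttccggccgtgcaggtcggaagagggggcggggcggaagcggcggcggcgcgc
MCM3: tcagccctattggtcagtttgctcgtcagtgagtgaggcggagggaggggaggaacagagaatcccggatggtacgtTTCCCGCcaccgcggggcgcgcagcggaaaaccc
PCNA: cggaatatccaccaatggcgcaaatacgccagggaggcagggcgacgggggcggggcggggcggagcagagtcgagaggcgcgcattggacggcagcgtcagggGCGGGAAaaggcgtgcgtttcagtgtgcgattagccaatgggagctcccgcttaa
MCM10: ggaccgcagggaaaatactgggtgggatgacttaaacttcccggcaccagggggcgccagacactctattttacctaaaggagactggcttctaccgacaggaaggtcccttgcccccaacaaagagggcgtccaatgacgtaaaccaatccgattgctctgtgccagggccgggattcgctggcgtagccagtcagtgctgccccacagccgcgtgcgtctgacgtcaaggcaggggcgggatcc

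Read gene by gene, 32 of the 41 matched members (78.0%) had an E2F-type word at 1 or more starts, and 25 (61.0%) had CCAAT. Of the 18 matched members called lower with the block, 14 had an E2F-type word (77.8%), beside 17 of the 22 that were not called (77.3%). CCAAT was in 14 of the same 18 (77.8%) and in 10 of the 22 (45.5%). Calls without the block did not share this difference. CCAAT was then in 2 of the 4 matched members called lower (50%) and in 22 of the 36 not called (61.1%). An E2F-type word was in 2 of the same 4 (50%) and in 29 of the 36 (80.6%). The differences were not tested. MCM10 and DBF4, with the largest decreases, had no E2F-type word in these windows, while MCM3 and RFC3 had. These are matches of letters in a window and say nothing of binding.

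The same treatment was given to cells with the non-targeting sgRNA, where 2 rapamycin libraries stand beside 1 DMSO library and no test was made. Log2 fold changes were again below 0 for 39 of the 48 (81.2%), with a median of -0.11. The share below 0 was 46.7% over all tested genes (median 0.03) and 59% over the genes of like level (median -0.05). MCM10 measured 71.8 CPM with DMSO and 59.1 and 55.2 CPM with rapamycin, a log2 fold change of -0.33. DBF4 measured 82.5 CPM with DMSO and 68.9 and 65.4 CPM with rapamycin (-0.30), and RFC3 57.5 CPM with DMSO and 47.95 and 44.3 CPM with rapamycin (-0.32). MCM3 had -0.23 (248 CPM, then 215 and 207 CPM) and MCM4 also had -0.23 (476 CPM, then 409 and 402 CPM). In all 5 genes that fell with the HBG1 sgRNA, both rapamycin libraries were below the DMSO library, as in 34 of the 48 (70.8%). That order rests on 1 DMSO library, and its share over all tested genes was not computed.

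PRIM1 was higher with rapamycin here too, at 88.8 and 85.6 CPM beside 66.5 CPM with DMSO, a log2 fold change of 0.39. RPA3 was not, with 37.0 and 31.97 CPM on either side of 33.6 CPM (0.04). PCNA measured 168 CPM with DMSO and 130 and 148 CPM with rapamycin (-0.28), CDC6 97.7, 90.2 and 84.2 CPM in the same order (-0.16), MCM2 194, 198 and 178 CPM (-0.05) and E2F1 58.1, 51.0 and 52.4 CPM (-0.17). CDT1 measured 209 CPM with DMSO and 271 and 243 CPM with rapamycin (0.30).

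The 2 guides' rapamycin changes share no library. They had the same sign in 38 of the 48 genes (79.2%), 34 lower and 4 higher, where 77.6% of the genes of like level and 68.0% of all tested genes did so. Across the 48 genes Pearson's r was 0.713 and Spearman's rho 0.705, and across the genes of like level 0.772 and 0.739; these describe genes, which are not independent replicates. Of the 22 genes whose HBG1 sgRNA libraries did not overlap downwards, 19 also had both non-targeting rapamycin libraries below the DMSO library. Over all 48 genes, 34 (70.8%) had this order, and the share over all tested genes was not computed. Summed over the 48, the share of counts was 0.596% with DMSO and 0.562% and 0.549% with rapamycin.

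Whether the guide altered the response was tested as the interaction of guide and rapamycin, whose spread for the single non-targeting DMSO library was taken from the other groups. None of the 48 genes was called, and none had an unadjusted p under 0.05 (edgeR's quasi-likelihood test), and DESeq2 called none of them. Over all tested genes 1 was called (0.00422%) and 678 had an unadjusted p under 0.05. The interaction values of the 48 ran from -0.24 (ORC1) to 0.36 (RPA3), with SEs of 0.12 to 0.24, so differences of that size between the guides could not be resolved. HBG1 and non-targeting sgRNA were also compared under rapamycin alone. None of the 48 was called by edgeR or DESeq2 and none had an unadjusted p under 0.05, where 7 genes (0.0296%) were called over all tested genes and 1484 had an unadjusted p under 0.05. The differences between guides ran from -0.20 (CLSPN) to 0.24 (RPA3), with a median of -0.01 and SEs of 0.0744 to 0.149.

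Other genes of the same processes were counted from 6 further lists, between rapamycin and DMSO in HBG1 sgRNA cells. Of the genes of like level, 10.4% were called lower and 4.30% higher without the block. The shares were 20.5% and 9.73% with it, and 13.7% and 5.72% by DESeq2. Among 33 other replication genes, 4 fell (12.1%) and 1 rose (3.03%), with a median log2 fold change of -0.05. POLD4, the small accessory subunit of polymerase delta, rose by 0.74 on the log2 scale (SE 0.095, adjusted p 0.000313), and MCMBP, which binds MCM proteins, fell by 0.46 (SE 0.0818, adjusted p 0.00339). SUPT16H, a subunit of the histone chaperone FACT, fell by 0.31 and POLE3, an accessory subunit of polymerase epsilon, fell by 0.26. With the block, 7 of the 33 were lower (21.2%) and 2 higher (6.06%).

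Among 27 genes that control G1/S entry, 3 fell (11.1%, beside 10.4% of the genes of like level) and none rose. With the block, 7 were lower (25.9%) and 1 higher (3.7%), and DESeq2 called 6 lower. The 3 that fell were CDC25A, the phosphatase that activates CDK2 (fell by 0.45), SKP2, which targets the inhibitor p27 for degradation (fell by 0.43), and E2F4, an E2F of the repressor class (fell by 0.37), with adjusted p-values of 0.00946, 0.00396 and 0.0129. Of 13 genes of nucleotide supply, NME1, a nucleoside diphosphate kinase, fell by 0.34 (adjusted p 0.0105) and the others did not pass. With the block, 2 of the 13 were lower and 2 higher. DESeq2 called 2 of the 13 lower and 1 higher. Of 10 genes of the replication checkpoint, ATRIP, the partner of the ATR kinase, fell by 0.52 (adjusted p 0.0128) and RAD1, of the 9-1-1 clamp, fell by 0.32 (adjusted p 0.0171), and the block also called 2 lower. Of 14 tested genes of replication-coupled histones and their processing, SLBP, which binds histone mRNA stem loops, fell by 0.44 (adjusted p 0.00139) and the median was 0.01. With the block, 1 was lower and 1 higher. The libraries were made from poly-T selected RNA, so the histone values describe only transcripts that carry poly(A), and other histone mRNA was not measured.

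Genes of mitosis and G2/M, which peak after S phase, gave 0 calls of 30 by edgeR and by DESeq2, with 8 at an unadjusted p under 0.05 in edgeR. They had a median log2 fold change of -0.03, 18 below 0 and 12 above. With the block, 2 were lower and 4 higher. With the non-targeting sgRNA their median was 0.12, beside -0.11 for the 48 replication and G1/S genes in the same 3 libraries.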

How the data were processed

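Per the labels' protocols, the 9 K562-FIRE libraries were made from poly-T selected RNA with NEBNext Ultra reagents. What the authors deposited is a table of raw counts, in whole reads per Ensembl gene and library. Per the submitters' processing notes, the tools were STAR 2.7.3a, featureCounts, Subread 2.0.0, R 4.1.2, limma 3.34.9 and edgeR 3.24.0, with build GRCh38 (hg38). The annotation release, the strand setting and the treatment of reads that fit several genes are not given in the sources used here.

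Symbols, positions and exon lengths came from GENCODE 29 (GRCh38), in which 58039 of 58347 IDs (99.47%) were found, all 48 members among them. Counts were fitted with edgeR 4.0.16 in R 4.3.3: filterByExpr at a minimum count of 10, TMM scaling (factors 0.977 to 1.02), a quasi-likelihood fit with 1 mean per group over all 9 libraries, and Benjamini-Hochberg adjustment over 23675 genes, with calls at an adjusted p under 0.05. The script was tested on simulated data. SE is the absolute log2 fold change over the root of edgeR's F statistic. CPM and RPKM were computed here from the deposited counts, on TMM-scaled library sizes. No spike-in was used in these levels, so all are relative to the other genes.

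Replicate numbers came from the sample titles. To see whether they pair libraries, deviations from group means were correlated over 11464 genes. With the HBG1 sgRNA, rapamycin and DMSO libraries of number 1, 2 and 3 gave 0.558, 0.281 and 0.233, and were taken as pairs. Rapamycin libraries of number 1 and 2 gave -0.0708 and -0.0716 between guides, and were not taken as pairs. Deviations within a group cancel, so the HBG1 sgRNA libraries of number 1, which stood apart, can also raise the values of numbers 2 and 3. Libraries of unlike number were not correlated, so a pairing of numbers 2 and 3 was not tested apart from number 1. Replicates differed by more than sampling noise, so none was counted as a repeat (correlation of log2 CPM 0.989 to 0.994). No direct test was made against the non-targeting DMSO group, which has 1 library, though the interaction uses it. Alternatives were RLE and upper quartile scaling, no filter on low counts, DESeq2 1.42.0, replicate number as a block, fewer groups, an additive model of guide and treatment, leaving out each library and, chosen after seeing the data, each pair. Genes given with the value in every library are those called, plus MCM2, CDC6, PCNA and E2F1. From each other list at most the 4 called genes with the largest change are named. The members and lists were chosen with earlier results of these data known. Promoters are from RefSeq (GRCh38.p14).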

Additional observations from a re-analysis of the deposited data

How the results depend on the processing

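The members called lower and higher between rapamycin and DMSO in HBG1 sgRNA cells (5 and 2, of 1609 genes called) were 5 and 2 with RLE scaling, 2 and 2 with upper quartile scaling, 8 and 2 with no filter on low counts (2156 genes called), 13 and 2 with DESeq2 (2147 genes called, 1270 lower and 877 higher), 4 and 1 on the 6 HBG1 sgRNA libraries alone, and 16 and 1 in an additive model over both guides (3263 genes called). With the replicate block they were 21 and 2 (3441 genes called). Fits chosen after seeing the data left out pairs: the block gave 10 and 2 (2726 genes) without pair 1, 17 and 2 (3199) without pair 2, and 11 and 0 (1831) without pair 3, and the fit to all libraries gave 8 and 2 (2110) without pair 1, 1 and 0 (441) without pair 2, and 0 and 0 (162) without pair 3. Leaving out 1 library gave 2 to 11 lower, 0 to 2 higher and 664 to 1731 genes in all. The cause of these differences was not tested.

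Between guides under rapamycin the 7 genes called became 91 with no filter, 13 with DESeq2, 13 with the replicate block and 3 to 7 without 1 library. For the interaction the 1 gene became 8, 0, 3 and 0 to 4 in the same order. No member was called in either test under any of these settings, and the interaction could not be fitted without the non-targeting DMSO library. No called member reversed its direction. Over 19 alternatives MCM10 lost its call in 1, DBF4 in 2, PRIM1 in 7, MCM3 and RPA3 in 8, MCM4 in 9 and RFC3 in 11, with adjusted p up to 0.0575, 0.0814, 0.433, 0.224, 0.401, 0.273 and 0.224. CDC6 gained a call in 7 and PCNA in 9. Members had 349 to 20790 counts per library. The 1 non-targeting DMSO library leaves the changes with that guide without an error of their own.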
